A study of Homo sapiens with 9 samples.

Results

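MEST and 9 other genes of imprinted loci were followed across 9 RNA libraries of a human breast epithelial line. The cells carried a hairpin against the histone methyltransferase G9a or a scrambled control. The 10 genes (MEST, COPG2, PEG10, SGCE, PLAGL1, PEG3, GRB10, IGF2R, PHLDA2 and H19) were matched by Ensembl identifier among 60308 gene identifiers in the count files. All 10 were matched, and 9 of them passed the filter on low counts that precedes the test, while PEG3 had no read. All cultures were MCF10A, an immortalised line of breast epithelial cells, and all carried ectopic MYC (pBABE-hygro-MYC) and the mutant PI3KH1047R (pMN-IRES-GFP-PI3KH1047R). Each culture also carried a doxycycline-inducible hairpin on pLKO-tetON-puro: a scrambled control (shSCR), or a first or second hairpin against G9a (shG9a_1 and shG9a_4). Doxycycline was given to every group, the controls included, at 2 µg/mL for 72 hours. Each group had 3 libraries, which the design text calls biological replicates, and the labels do not say whether a transduced population was a clone or a pool. The members were picked with their levels across these 3 groups in view, so those levels and the fold changes between groups are a description.

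Genomic imprinting is the expression of a gene from the copy inherited from a single parent. The choice is laid down in the germ line as DNA methylation at an imprinting control region, and in the body it is kept by zinc finger proteins such as ZFP57, their partner TRIM28, DNA methyltransferases and histone H3 lysine 9 methylation. G9a, encoded by EHMT2, places methyl groups on that lysine, and in the mouse placenta it helps to silence several imprinted genes. MEST, PEG10, SGCE, PLAGL1 and PEG3 are known as genes expressed from the paternal copy, and H19 and PHLDA2 from the maternal copy. IGF2R and GRB10 are imprinted in some tissues or isoforms, and COPG2 overlaps the end of MEST on the other strand. The read counts do not separate the parental copies.

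Sequences that control or accompany these genes were taken from RefSeq on GRCh38.p14, whereas the files were made on GRCh37. Promoter windows of 300 bases (250 before a start site and 50 after it) were found for 6 of the 10 members, 18 windows in all, and were searched on both strands for TGCCGC, the core of the motif that ZFP57 binds. The motif stood in 4 of 5 windows of MEST, 1 of 5 of PLAGL1, 1 of 5 of GRB10, 1 of 1 of IGF2R and 0 of 1 each of COPG2 and H19, beside 16.74% of all 35116 windows. Windows of MEST overlap and share matches: they make up 3 separate stretches, of which 2 hold the motif, at 4 distinct positions in all. The share over the table counts each window once. Windows of MEST and PLAGL1 are shown because these genes had the lowest log2 fold changes of the members under both hairpins, and that of IGF2R because it is rich in another motif. Capitals mark TGCCGC or its reverse complement GCGGCA.
MEST, 250 bases before a start site on the plus strand, chr7:130486097-130486346: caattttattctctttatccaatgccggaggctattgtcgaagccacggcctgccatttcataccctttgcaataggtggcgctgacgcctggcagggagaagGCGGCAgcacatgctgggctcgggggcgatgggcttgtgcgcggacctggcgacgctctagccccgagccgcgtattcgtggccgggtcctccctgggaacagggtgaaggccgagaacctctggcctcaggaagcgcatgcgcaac
MEST, 30 bases across the most downstream start site, plus strand, chr7:130492081-130492110: gcgcTGCCGCGGCAaccagcacaccccggc
PLAGL1, 250 bases before a start site on the minus strand, chr6:144008260-144008509: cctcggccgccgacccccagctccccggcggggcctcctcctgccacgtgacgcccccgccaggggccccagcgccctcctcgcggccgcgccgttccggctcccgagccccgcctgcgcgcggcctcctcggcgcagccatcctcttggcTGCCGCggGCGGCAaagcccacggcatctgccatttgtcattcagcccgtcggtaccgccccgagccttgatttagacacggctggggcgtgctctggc

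The 30 bases of MEST carry the motif on both strands, with the matches overlapping, and the whole window around them held 3 matches, as 0.4414% of all windows did with 3 or more. They were taken from the MEST window with the most matches, so that share does not measure how rare it is. That PLAGL1 stretch held 2 matches and 32 CpG dinucleotides, and windows with 2 or more made up 2.754% of the table. The IGF2R window was searched for CACGTG, the E-box that MYC binds with MAX, a palindrome that reads the same on both strands and does not overlap the first motif. It held 3 E-boxes, which 0.09397% of all windows matched or exceeded, while 7.256% held at least 1. Both motifs contain a CpG, and these shares were not matched for CpG content. The whole windows of MEST, PLAGL1 and IGF2R described here held 25, 39 and 41 CpG. Over all windows the median was 14 and the upper quartile 28. In the stretch printed here, capitals mark the E-boxes.
IGF2R, 250 bases before the start site on the plus strand, chr6:159968832-159969081: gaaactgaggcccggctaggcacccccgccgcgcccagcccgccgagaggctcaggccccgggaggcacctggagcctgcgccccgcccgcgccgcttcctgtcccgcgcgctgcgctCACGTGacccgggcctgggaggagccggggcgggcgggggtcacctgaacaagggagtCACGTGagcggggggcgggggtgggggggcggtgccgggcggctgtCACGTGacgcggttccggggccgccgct

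No E-box stood in the MEST, COPG2, GRB10 or H19 windows, and 1 PLAGL1 window had 1. These matches describe the letters of the windows and are not measured binding sites.

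MEST and H19 are also the hosts of microRNAs, shown here because their hairpins lie inside member genes. Capitals mark the seed, bases 2 to 8.
miR-335-5p, in MEST: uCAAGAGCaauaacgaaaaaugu
miR-335-3p, in MEST: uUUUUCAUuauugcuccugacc
miR-675-5p, in H19: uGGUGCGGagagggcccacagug
miR-675-3p, in H19: cUGUAUGCccucaccgcuca

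The 4 mature forms have 4 different seeds. These libraries of long RNA do not measure them, and the MIR335 gene itself had 42 reads over the 9 libraries.

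Reads in genes came to between 53065611 and 76958831 per library, with 26759 to 28346 genes detected. Levels are given as CPM, read counts scaled to a common library size after TMM correction for composition. The targeted gene EHMT2 was at 51.1, 45.2 and 45.4 CPM in the shSCR libraries, at 17.6, 22.6 and 21.0 in shG9a_1 and at 32.1, 27.2 and 33.5 in shG9a_4. Its log2 fold change was -1.21 ± 0.11 (SE, n = 3 per group) in shG9a_1, with an adjusted p of 0.00766 in edgeR's quasi-likelihood test, and -0.61 ± 0.11 in shG9a_4, with an adjusted p of 0.259 in edgeR and 0.0907 with replicate number as a block. Of the breast epithelial markers, 11 of 11 had reads, with a summed level between 3883 and 6946 CPM, although KRT19 had only 30 reads in all and was not tested. KRT14 was at a mean of 33.4 CPM in shSCR, 60.1 in shG9a_1 and 54.2 in shG9a_4. With the block it passed in both hairpins, with an adjusted p of 0.00576 and 0.0148 in edgeR, where 0.776% and 0.0759% of all genes did. No marker of that list passed without the block. Endothelial markers were at or near 0 (CLDN5 had no read), and the 4 leukocyte markers summed to 1.99 to 6.30 CPM. Nearly all of that sum was CD14, at 1.91 to 6.24 CPM, while PTPRC and CD3E were at a mean of 0.0212 and 0.00207. Of the fibroblast and pericyte markers, DCN was present at 135 to 413 CPM, LUM at 2.40 to 7.69 and RGS5 at 3.19 to 4.24. A mean under 1 CPM was found for 4 of the 8, among them COL3A1 at 0.0163 to 0.348.

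Divided by exon length (GENCODE 29), the members spanned a wide range. The mean level over the 9 libraries was highest for PEG10, at 27.9 CPM per kilobase with a range of 21.4 to 32.1. MEST (17.5, range 12.9 to 21.6) and IGF2R (17.2, range 15.1 to 21.1) came next, and their ranges overlapped each other. The highest MEST library reached into the PEG10 range, while every IGF2R library lay below every PEG10 library. PHLDA2 followed at 5.10 (2.63 to 6.49) and GRB10 at 4.45 (4.18 to 4.74), neighbours in order that also overlapped. PLAGL1 (2.20 to 3.02) and COPG2 (mean 2.44, 2.20 to 2.63) overlapped throughout, and SGCE stood below them at 0.968 (0.810 to 1.11). The length used joins all annotated exons of a gene, 20884 bases for SGCE, so the place of SGCE depends on it. Before division, SGCE had a mean of 20.2 CPM, beside 10.1 for COPG2 and 21.8 for PLAGL1. H19 was the lowest member with reads, at 0.313 with a range of 0.0732 to 0.664, which lay below every SGCE library. PEG3 had 0 reads in each library and on either strand. A floor of 3 reads per library was set for it, which is 0.0390 to 0.0565 CPM depending on the library.

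The paternally expressed members were described first. MEST, which encodes a protein of the alpha/beta hydrolase fold that is known from the growth of fat tissue, was at 103, 96.2 and 91.2 CPM in the shSCR libraries, at 78.2, 61.7 and 68.5 in shG9a_1 and at 91.1, 81.9 and 82.4 in shG9a_4. Every library of both hairpin groups lay below the lowest control, although the highest shG9a_4 library (91.1) came close to it (91.2), and every shG9a_4 library lay above every shG9a_1 library. The group means were 96.9 ± 6.14 (SD, n = 3), 69.5 ± 8.26 and 85.2 ± 5.15 CPM. That amounts to a log2 fold change of -0.48 ± 0.09 (SE) in shG9a_1, a level lower by 28.4%, and of -0.19 ± 0.09 in shG9a_4. Between the hairpins, shG9a_4 was higher by a log2 difference of 0.29 ± 0.09. In such bulk libraries, fewer cells with the RNA and less of it per cell cannot be told apart.

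PEG10, a gene derived from a retrotransposon and known for its part in building the placenta, was at 215, 173 and 209 CPM in shSCR, at 169, 143 and 187 in shG9a_1 and at 202, 181 and 202 in shG9a_4. The groups overlapped, since the control of replicate number 2 lay below 1 shG9a_1 library, yet within each number the shG9a_1 library lay below its control. The log2 fold changes of PEG10 were -0.25 ± 0.11 in shG9a_1 and -0.03 ± 0.11 in shG9a_4. With the number as a block, the adjusted p in shG9a_1 was 0.0896 in edgeR, which did not pass. SGCE, which encodes the epsilon subunit of the sarcoglycan complex at the cell membrane and starts next to PEG10 on the other strand, was at 22.2, 16.9 and 19.5 CPM in shSCR, at 20.4, 18.0 and 19.9 in shG9a_1 and at 21.9, 23.2 and 20.0 in shG9a_4. Its shG9a_1 libraries all lay within the control range, with log2 fold changes of -0.01 ± 0.11 and 0.15 ± 0.11 for the hairpins. The ratio of PEG10 to SGCE, each in CPM, had a mean of 10.2 in shSCR, 8.56 in shG9a_1 and 9.05 in shG9a_4.

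PLAGL1 encodes a zinc finger transcription factor that is known to hold back the cell cycle. Its levels were 26.3, 22.5 and 23.3 CPM in shSCR, 20.5, 19.2 and 20.4 in shG9a_1 and 20.3, 19.9 and 23.7 in shG9a_4. All shG9a_1 libraries lay below all controls, while 1 shG9a_4 library lay among the controls. The log2 fold changes were -0.26 ± 0.10 and -0.18 ± 0.10. HYMAI, a noncoding RNA within PLAGL1 on the same strand, had 414 reads in all and 0.557 to 0.856 CPM, and 289 bases of its exons are shared with PLAGL1.

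COPG2, a subunit of the coat of vesicles that return from the Golgi apparatus, is read from the strand opposite to MEST. It was at 9.31, 9.95 and 10.0 CPM in shSCR, at 10.5, 10.8 and 10.9 in shG9a_1 and at 9.09, 10.2 and 10.2 in shG9a_4. The shG9a_1 libraries lay above all controls and above all shG9a_4 libraries, although by little: the log2 fold changes were 0.14 ± 0.10 and 0.01 ± 0.10. The ratio of MEST to COPG2 in CPM had a mean of 9.96 in shSCR, 6.47 in shG9a_1 and 8.72 in shG9a_4, and every shG9a_1 library (5.71 to 7.42) lay below every control (9.10 to 11.1). The shG9a_4 ratios, from 8.04 to 10.0, overlapped the controls.

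Members that act on growth factor signalling followed. GRB10, an adaptor that binds the insulin and IGF1 receptors and dampens their signal, was at 41.5, 43.2 and 40.9 CPM in shSCR, at 42.4, 45.3 and 45.3 in shG9a_1 and at 42.3, 46.4 and 44.8 in shG9a_4. All groups overlapped, with log2 fold changes of 0.08 ± 0.07 and 0.09 ± 0.07. IGF2R, the receptor that carries IGF2 to the lysosome and sorts enzymes tagged with mannose 6-phosphate, was at 281, 269 and 298 CPM in shSCR, at 307, 299.8 and 377 in shG9a_1 and at 298, 308 and 322 in shG9a_4. The lowest shG9a_1 library stood just above the highest control, whereas the lowest shG9a_4 library stood just under it. Log2 fold changes were 0.21 ± 0.09 and 0.13 ± 0.09, and the highest library of all was that of shG9a_1 with replicate number 3. AIRN, the antisense RNA that silences Igf2r in the mouse, had 0 reads in the 9 libraries.

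PHLDA2, a pleckstrin homology domain protein that limits growth of the placenta, was at 4.46, 3.81 and 4.62 CPM in shSCR, at 4.81, 6.14 and 6.20 in shG9a_1 and at 5.13, 2.52 and 6.15 in shG9a_4. All shG9a_1 libraries lay above all controls, while shG9a_4 held both a library below the controls and libraries above them. The log2 fold changes, 0.41 ± 0.26 and 0.10 ± 0.27, had larger errors than those of MEST. H19, a long noncoding RNA abundant in the fetus, had 13 to 105 reads per library. It was at 0.386, 0.727 and 1.56 CPM in shSCR, at 0.212, 0.679 and 1.67 in shG9a_1 and at 0.473, 0.522 and 1.92 in shG9a_4. The hairpin groups overlapped throughout, with log2 fold changes of -0.06 ± 0.74 and 0.12 ± 0.73, and in each group the library of replicate number 3 was the highest.

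**Figure D1:**
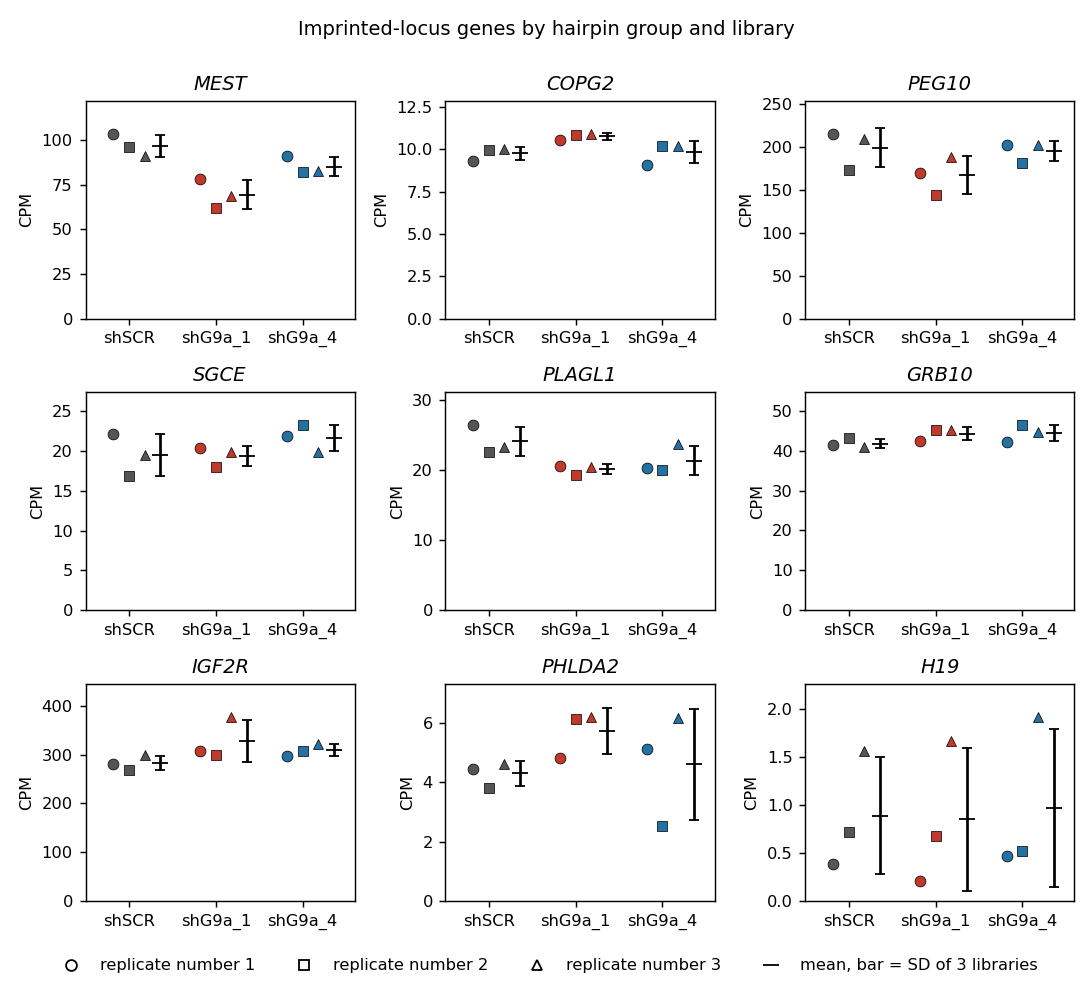
Level of 9 members in CPM (y axis from 0) in each of the 9 libraries, by hairpin group (colour) and replicate number (symbol), with the mean and SD of 3 libraries beside each group. MEST lies lower in shG9a_1 (61.7 to 78.2 CPM) than in shSCR (91.2 to 103), while H19 separates by replicate number in every group.

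The fold changes of each hairpin were then read against the whole table. In edgeR's quasi-likelihood fit of all 9 libraries, 0 of 9 members had an adjusted p below 0.05 in shG9a_1, where 0.038% of the 18435 genes tested did (7 genes). Without adjustment, 4 of 9 members had a p under 0.05 in shG9a_1, beside 7.5% of all genes. In shG9a_4, 0 of 9 members passed with adjustment (0.0271% of genes) and 0 without it (2.38% of genes), and DESeq2 also called 0. Between the hairpins, 0 of 9 passed, as did 0% of genes, and 1 of 9 had an unadjusted p under 0.05, beside 4.09% of genes, while DESeq2 called 0 members. With the replicate number as a block, MEST passed in shG9a_1: its adjusted p was 0.223 without the block and 0.0108 with it in edgeR, and the block called 0.776% of all genes. DESeq2, without the block, called MEST alone among the members in shG9a_1, with an adjusted p of 0.00421.

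Over the 29 settings run for shG9a_1, the log2 fold change of MEST ranged from -0.57 to -0.40 and its adjusted p in edgeR, limma or DESeq2 from 5.81e-05 to 0.9995, with 9 settings past the threshold. With the block, MEST lost the call when any of the shSCR libraries or the shG9a_1 library of replicate number 3 was left out (adjusted p of 0.0714, 0.0547, 0.0845 and 0.0946 in edgeR). In shG9a_4 and between the hairpins, the adjusted p of MEST with the block was 0.754 and 0.262 in edgeR, where the block called 0.0759% and 0% of genes. PEG10 passed in a single setting, the block without the shG9a_4 library of replicate number 2, with an adjusted p of 0.0292 in edgeR. None of these p-values supports the choice of the members, which were picked on the same counts.

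Groups did not overlap for 5 of 9 members in shG9a_1 (MEST and PLAGL1 lower, COPG2, IGF2R and PHLDA2 higher), beside 14.7% of all genes tested (7.54% lower and 7.15% higher). In shG9a_4 this held for MEST alone, which was lower, beside 6.43% of genes (3.18% lower). Between the hairpins it held for MEST, higher in shG9a_4 as were 5.06% of genes, and for COPG2, lower as were 4.11%, beside 9.17% in either direction. The median log2 fold change over the 9 members was -0.01 in shG9a_1 and 0.09 in shG9a_4, beside 0.00086 and 0.0021 over all genes tested. Both hairpins are set against the same control libraries, so their values are given side by side and not as separate evidence. MEST, PEG10 and PLAGL1 had negative values for both, COPG2, GRB10, IGF2R and PHLDA2 had positive values for both, and SGCE and H19 had values of opposite sign within 2 SE of 0. The shG9a_4 values of PEG10, COPG2 and PHLDA2, and the values of H19 in both hairpins and of SGCE in shG9a_1, changed sign in at least 1 of the other settings.

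**Figure D2:**
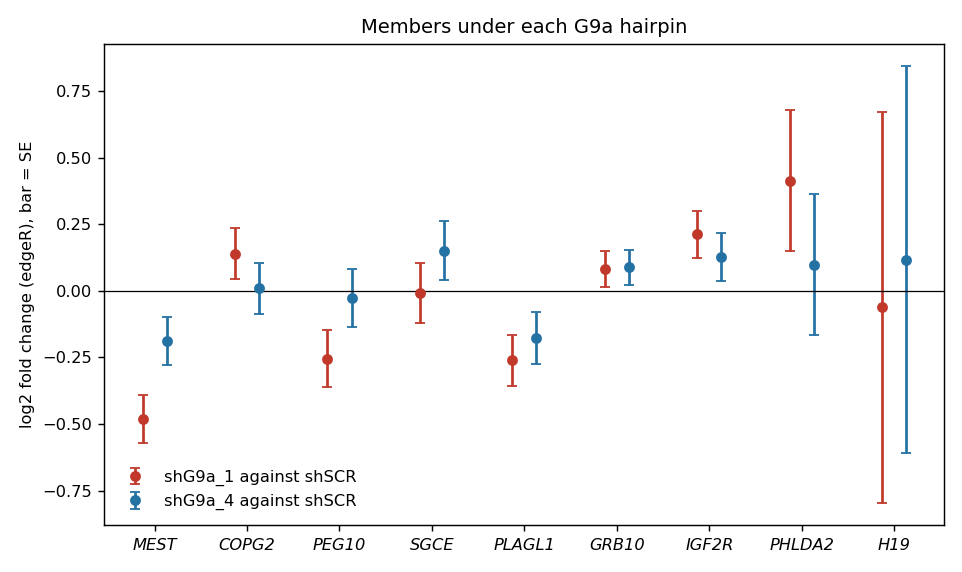
Log2 fold change (y axis) of 9 members under each hairpin against the same shSCR libraries, from the fit of all genes; bars are 1 SE. MEST has the lowest value in shG9a_1 (-0.48), and the errors of H19 (0.74 and 0.73) exceed all others.

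The authors' deposited tables give, for each hairpin against control, a posterior probability of different expression (PPDE) and a smoothed fold. For MEST, the authors' deposited table lists a PPDE of 1.0 and a fold of 0.703 in shG9a_1, and a PPDE of 0.383 and a fold of 0.853 in shG9a_4. PLAGL1 stood at a PPDE of 0.944 with a fold of 0.826 in the authors' deposited table for shG9a_1 and at 0.00456 for shG9a_4. For PHLDA2, the authors' deposited table lists 0.530 in shG9a_1 and 0.00106 in shG9a_4, while SGCE, GRB10 and IGF2R had a PPDE under 0.01 in both. In the same authors' deposited tables, 3.00% of 10748 symbols in shG9a_1 and 0.614% of 10745 in shG9a_4 reached a PPDE of 0.95. The other 4 members are not analysed here from these tables.

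The replicate numbers 1, 2 and 3, which the 3 groups share, allow another comparison of the same counts. The members were picked on levels by hairpin group, but with earlier results of these data known, so these values too are a description. The test of the number was added after the counts had been seen. Of 9 members, 2 passed in edgeR's blocked fit, H19 with an adjusted p of 0.000807 and PEG10 with 0.0342, beside 7.47% of all genes tested. H19 had a mean of 0.357 CPM (range 0.212 to 0.473) in the libraries of number 1, of 0.643 (0.522 to 0.727) in number 2 and of 1.72 (1.56 to 1.92) in number 3. The 3 ranges did not overlap, and number 3 lay above the other numbers in every library, as it did for 6.92% of all genes. In a split of the variance of log2 levels, 91.0% for H19 lay between replicate numbers and 1.89% between hairpins, whereas for MEST 80.1% lay between hairpins and 15.6% between numbers. Medians over all genes tested were 33.9% for the number and 18.9% for the hairpin. Since MEST was picked with its levels across the hairpin groups in view, its share between hairpins gives no support to that choice.

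H19 passed in 10 of 10 settings of that test, with an adjusted p between 0.000563 and 0.0278 in edgeR. PEG10 passed in 3 of 10, with a range of 0.0150 to 0.170, and was lost without any library but shG9a_1 of number 1 and shG9a_4 of number 2. Its mean was lowest in number 2, at 166 CPM, beside 195 in number 1 and 199 in number 3. MEST had an adjusted p of 0.117 and IGF2R of 0.160 for the number in edgeR.

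Other genes and markers moved with the number as well. Of 5 tested genes that lie near H19, 2 passed the test of the number, beside 7.47% of all genes. They were TNNI2 and SYT8, with an adjusted p of 0.00339 and 0.00441 in edgeR. This was not particular to H19: 4 of 8 passed near PEG10 and SGCE, 2 of 6 near IGF2R, 1 of 2 near MEST and COPG2 and 1 of 3 near GRB10. Near PHLDA2, PLAGL1 and PEG3, 0 of 8, 0 of 7 and 0 of 3 did. SYT8, of the synaptotagmin family, was at 13.4 to 24.9 CPM in number 3 and at 3.13 to 8.98 in the other libraries. Of 10 breast epithelial markers tested, 9 passed as well, and their summed level was 5892 to 6946 CPM in number 3, 4686 to 6152 in number 1 and 3883 to 4943 in number 2. Epithelial adhesion genes were among them: CDH1 was at 41.9 to 48.0 CPM in number 3 and at 13.1 to 23.0 elsewhere. The fibroblast and pericyte markers, of which 2 of 5 tested passed (LUM and DCN), summed to 143 to 200 CPM in number 3 and to 284 to 426 in the other libraries. Nearly all of that sum was DCN, at 135 to 190 CPM in number 3 and 273 to 413 elsewhere. COL1A1, PDGFRB and RGS5 did not pass, and COL1A1 had means of 1.21, 1.41 and 1.40 CPM in numbers 1, 2 and 3. CD14, the 1 leukocyte marker tested, passed with an adjusted p of 0.0253 in edgeR, and was lowest in number 1. The part of these markers in the H19 values was not tested, and the labels do not say what a number stands for beyond a replicate.

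**Figure D3:**
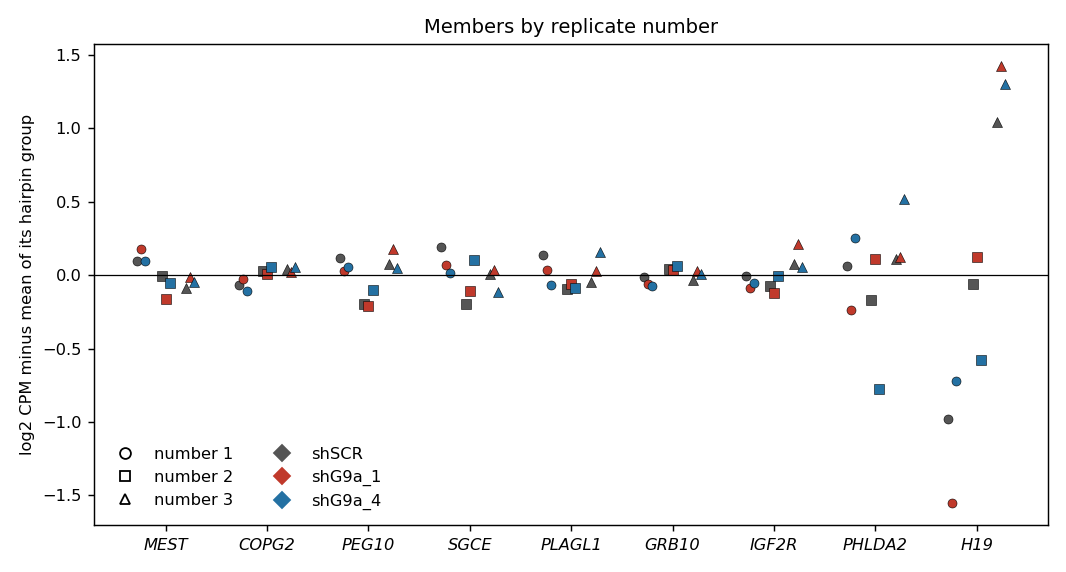
Deviation of log2 CPM from the mean of its own hairpin group (y axis) for 9 members, by replicate number (symbol) and group (colour). The 3 libraries of number 3 lie above 1.0 for H19, and the other members, PHLDA2 in shG9a_4 excepted, stay within 0.25 of 0.

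The library of number 3 was the highest of every group for 4 of the 9 members (H19, PHLDA2, IGF2R and COPG2), that of number 1 for MEST and that of number 2 for GRB10. The share of all genes with such an order was not taken, so that count does not set the members apart. Of the members named here, only H19 passed the test of the number, and PHLDA2 had an adjusted p of 0.364 in edgeR. In shG9a_4, the PHLDA2 library of number 2 lay 0.77 below the group's mean log2 level and that of number 3 lay 0.52 above it.

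Reads on the strand opposite to each gene were a second measure that the choice of members did not use. They came to 18.7% of the reads on the gene's own strand for COPG2, to 0.201% for MEST, and to between 0.0361% and 0.537% for the other 7 members with reads. COPG2 had 1076 opposite reads in all, and it shares 228 bases of exon with MEST, which is read from that strand. A MEST read in those bases can count for MEST on its own strand and for COPG2 as an opposite read. The opposite-strand values of COPG2 are therefore not separate from the MEST counts on which the members were picked. PEG10 and SGCE share 219 bases of exon in the same way. In CPM of the opposite-strand column, COPG2 was at 43.9, 44.2 and 21.4 in shSCR, at 31.5, 36.1 and 17.7 in shG9a_1 and at 40.0, 48.1 and 28.0 in shG9a_4. In each group the library of number 3 was the lowest. MEST itself had only 97 opposite reads, 3 to 19 per library.

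Of the members, MEST, COPG2, PEG10 and IGF2R had enough opposite reads to be tested. In edgeR, none of them passed in either hairpin, as 0% of 9996 opposite-strand genes did. The log2 fold change of COPG2 on that strand was -0.36 ± 0.31 in shG9a_1 and 0.08 ± 0.31 in shG9a_4. Without adjustment, 0 of the 4 had a p under 0.05 in either hairpin. For the replicate number, COPG2, PEG10 and IGF2R passed on the opposite strand, with an adjusted p of 0.000687, 0.0149 and 0.00446 in edgeR, beside 11.6% of genes. COPG2 was lowest in number 3 (17.7 to 28.0 CPM of that column, 31.5 to 48.1 elsewhere), while IGF2R was highest there, from 3.35 to 10.4 beside 0.833 to 2.36. PEG10 was likewise highest in number 3, from 3.35 to 6.56 beside 0.278 to 2.27. The IGF2R and PEG10 values rest on 1 to 35 reads per library.

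The strand of counting mattered for MEST and COPG2. When strand was ignored, the deposited unstranded counts held 70.5% of the reads of MEST and 74.2% of those of COPG2, since a read that fits genes on both strands is then left out, while for the other members with reads the share was 100 to 101%. AC007938.2, an antisense gene that shares 602 exon bases with MEST, had 28 reads on its own strand and 11645 on the strand of MEST. MESTIT1, another antisense gene with 484 shared bases, had 22 on its own strand and 1751 on that of MEST. With unstranded counts, the log2 fold change of MEST in shG9a_1 was -0.49 ± 0.10, beside -0.48 ± 0.09 with the reverse strand.

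Other genes at the same loci were taken from lists of neighbours. At MEST and COPG2, 2 of 9 matched neighbours were expressed enough to be tested. CEP41, a centrosomal protein, had a log2 fold change of -0.14 ± 0.08 in shG9a_1, with every library (18.8 to 20.5 CPM) just below every control (20.6 to 22.6), and of -0.06 ± 0.08 in shG9a_4. CPA4, a carboxypeptidase that is imprinted in some tissues, had values of 0.35 ± 0.26 and -0.39 ± 0.26, and in shG9a_4 its libraries (3.54 to 4.46 CPM) lay below every shG9a_1 library (4.94 to 8.37). Neither passed in edgeR in any hairpin comparison, with or without the block.

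At PEG10 and SGCE, 8 of 13 neighbours were tested. PDK4, the kinase that shuts the pyruvate dehydrogenase complex, was at 24.9, 17.1 and 17.2 CPM in shSCR, at 38.9, 26.6 and 23.2 in shG9a_1 and at 29.2, 21.0 and 17.3 in shG9a_4. The groups overlapped, yet within each number the shG9a_1 library lay above the control, and the log2 fold change of 0.59 ± 0.23 had an adjusted p of 0.633 without the block and 0.0162 with it in edgeR. With the block, PDK4 lost the call when any of the shSCR libraries or the shG9a_1 library of number 1 or 3 was left out, with an adjusted p between 0.0573 and 0.133 in edgeR. No other neighbour of a member passed in either fit. CASD1, which adds acetyl groups to sialic acid and lies next to SGCE, had values of 0.09 ± 0.12 and 0.16 ± 0.12. PON2, an antioxidant lactonase, had 0.19 ± 0.08 and 0.16 ± 0.08.

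Around PLAGL1, 7 of 7 neighbours were tested. PHACTR2, which binds protein phosphatase and actin, was at 67.4, 66.1 and 67.6 CPM in shSCR, at 80.2, 74.8 and 84.2 in shG9a_1 and at 81.1, 82.4 and 78.1 in shG9a_4. All libraries of both hairpins lay above all controls, with log2 fold changes of 0.25 ± 0.06 and 0.26 ± 0.06 opposite in sign to those of PLAGL1. The adjusted p was 0.435 and 0.954 without the block, and 0.0950 and 0.345 with it, in edgeR. At GRB10, DDC, the decarboxylase that makes dopamine and serotonin, was at 0.278 to 0.317 CPM in shSCR and at 0.408 to 0.636 in shG9a_1, a log2 difference of 0.86 ± 0.26 with an adjusted p of 0.583 in edgeR. At PHLDA2, CDKN1C, an inhibitor of cyclin-dependent kinases, had 0.46 ± 0.26 and 0.30 ± 0.26, and KCNQ1OT1, the noncoding RNA that silences that cluster, had 0.17 ± 0.12 and 0.08 ± 0.12. At IGF2R, SOD2, the mitochondrial superoxide dismutase, had 0.43 ± 0.21 and 0.18 ± 0.21, with an adjusted p of 0.0816 in shG9a_1 with the block in edgeR. At PEG3, ZIM2, which shares 1264 exon bases with it, had 0 reads as well.

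Imprinted genes outside the members were read from lists by parental origin, 51 matched of 53 listed. Of 26 matched paternally expressed genes, 15 were tested, and 7 had no read (NDN, MAGEL2, NNAT, DLK1, RTL1, ZIM2 and MIMT1). In shG9a_1, 6 of the 15 had a positive and 9 a negative log2 fold change, with a median of -0.04. In shG9a_4 the counts were 8 and 7, with a median of 0.02. The lowest with a level of at least 1 CPM in shG9a_1 was L3MBTL1, a chromatin reader, at -0.30 ± 0.15, and the highest was KCNQ1OT1. In shG9a_4 the lowest was NAP1L5 at -0.24 ± 0.27 and the highest ZDBF2 at 0.14 ± 0.10.

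Of 25 maternally expressed genes, 13 were tested, with 9 positive and 4 negative values and a median of 0.14 in shG9a_1, and 7 and 6 with a median of 0.0049 in shG9a_4. Over all genes tested the medians were 0.00086 and 0.0021. In edgeR, 0 of the 28 tested imprinted genes passed in either hairpin, with or without the block. Without adjustment, 0 paternally and 1 maternally expressed gene had a p under 0.05 in shG9a_1 and none had in shG9a_4. The test of the replicate number called 2 of the 28, TFPI2, a protease inhibitor that was lowest in number 3, and CPA4, with an adjusted p of 0.000370 and 0.0365 in edgeR. That count is near the background of 7.47% of all genes tested.

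Factors known to keep imprints were read in the same way. Of 21 listed, 18 were tested, and DNMT3L, DPPA3 and CTCFL had no read. In shG9a_1, 4 of the 18 had positive and 14 negative log2 fold changes, with a median of -0.05 and a range of -0.16 to 0.68, and in shG9a_4 5 had positive and 13 negative values with a median of -0.02 and a range of -0.17 to 0.42. None passed in edgeR, with or without the block, and none had an unadjusted p under 0.05 in shG9a_4 or in shG9a_1. The highest value in both hairpins was that of ZFP57, which was scarce, with 3 to 14 reads per library. It was at 0.154, 0.156 and 0.0559 CPM in shSCR, at 0.179, 0.207 and 0.223 in shG9a_1 and at 0.171, 0.206 and 0.128 in shG9a_4. All shG9a_1 libraries lay above all controls while shG9a_4 overlapped them, and the log2 fold changes were 0.68 ± 0.40 and 0.42 ± 0.41, with an adjusted p of 0.757 and 0.99994 in edgeR. ZNF445, the zinc finger protein that shares its task, stood at a mean of 33.4 CPM in shSCR, with log2 fold changes of -0.04 ± 0.08 in both hairpins, and TRIM28 at 327 CPM, with -0.08 ± 0.11 and -0.06 ± 0.11. DNMT1, which copies DNA methylation at replication, had -0.08 ± 0.07 and -0.07 ± 0.07.

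The IGF and insulin genes around IGF2R and GRB10 were tested for 15 of 20, with 7 positive and 8 negative values and a median of -0.01 in shG9a_1, and 6 and 9 with a median of -0.06 in shG9a_4. IGF2, the ligand that IGF2R clears, was at or near 0, at most 0.0186 CPM. The receptors INSR and IGF1R had -0.16 ± 0.12 and -0.12 ± 0.10 in shG9a_1. SHC1, an adaptor downstream of them, had 0.23 ± 0.09 in shG9a_1, with all libraries (499.8 to 569 CPM) above all controls (444 to 466). None of the 15 passed in edgeR, with or without the block, and 1 had an unadjusted p under 0.05 in shG9a_1 and 0 in shG9a_4.

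**Figure D4:**
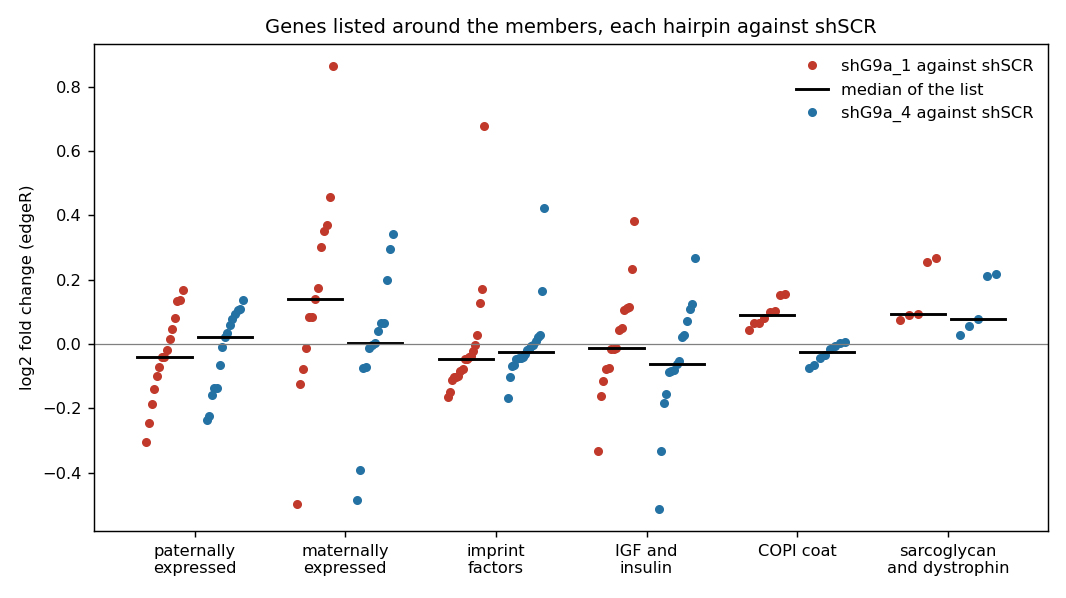
Log2 fold change (y axis) of every tested gene of 6 lists around the members, for each hairpin against shSCR, with the median of each list as a black bar. Medians lie between -0.06 and 0.14, and none of the genes shown passed the test.

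The genes whose levels most resembled those of MEST were named by Pearson correlation of log2 CPM over the 9 libraries, among 12873 genes with a mean of at least 1 CPM. The 9 points share 3 groups and 3 replicate numbers, so the values describe likeness and carry no test. Highest were TGIF2, a repressor of TGF-beta signalling (0.965), the splicing factor SRSF7 (0.960), the RNA-binding protein HNRNPAB (0.956), ENTPD1-AS1 (0.950) and ZNF274 (0.950), a zinc finger protein that recruits H3 lysine 9 methylation. TGIF2 had a mean of 26.7 CPM in shSCR, 20.7 in shG9a_1 and 23.4 in shG9a_4. Lowest were the ubiquitin ligase TRIM26 (-0.981), the Golgi protein GOLGA2 (-0.945), APOL1 (-0.944), CCDC107 (-0.940) and HLA-F (-0.924). In all, 62 genes had an absolute value of at least 0.9. EHMT2 stood at 0.824, and among the members PLAGL1 was at 0.734, PEG10 at 0.718 and COPG2 at -0.841. MEST was picked with its levels across the hairpin groups in view, so its likeness to the targeted gene is a description and no support. The share of all genes at or beyond the EHMT2 value was not taken.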

How the data were processed

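For each library the authors deposited whole-number counts of reads per gene, in 1 unstranded and 2 stranded columns, per the file headers. The RNA was total RNA freed of ribosomal RNA, sequenced with a strand-marking kit in pairs of 75 bases, per the labels' protocols. Tools named in the submitters' processing notes, with no roles, are DESeq, edgeR 3.14.0, STAR 2.5.2a and R 3.3.1, and the builds are hg19 and GRCh37. Annotation and alignment settings: not given in the sources used here. Per hairpin, a table that the authors deposited holds posterior probabilities (scores of 0 to 1) and linear fold values (ratios), per the file headers.

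The reverse-strand column was used because 94.7 to 95.1% of stranded reads lay on it. Rows that name no gene held 23.2 to 27.7% of reads and were left out. Of 60308 identifiers, 55277 were named from a gene name table and 120 from GENCODE 29, which covers 98.0% of reads. That release and RefSeq are on another build than the files, so gene lengths are approximate and coordinates are RefSeq's own. All 9 libraries entered one fit in edgeR 4.0.16 under R 4.3.3: quasi-likelihood F-test, TMM, filterByExpr (18435 genes left), two-sided, Benjamini-Hochberg over all genes, threshold 0.05. Adjusted p-values come from edgeR except where a sentence names a different tool. At this depth the SE of a gene's log2 fold change had a median of 0.154 under either hairpin. The fits were also run on simulated counts, which had no effect of the replicate number, unlike these data. That run therefore does not bear on the calls made with the number as a block.

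Replicate numbers come from the sample titles. Libraries with the same number deviated together from their group means (9 correlations of 0.178 to 0.462 with a mean of 0.303, beside a mean of -0.152 over the other 18 pairs), so a fit with the number as a block is given where it changes a call. Alternatives were DESeq2 1.42.0, voom in limma 3.58.1, a likelihood ratio test, other scalings and filters, unstranded counts, only the 2 groups compared, and each library left out. The test of the number, and the block with a library left out, were chosen after seeing the data. Members and gene lists were chosen with earlier results of these data known. Named from each list were genes past the threshold with or without the block, the 2 highest and 2 lowest log2 fold changes per hairpin among genes of at least 1 CPM (not all are retold), genes adjoining a member, and the 5 most and 5 least like MEST (log2 CPM with a prior count of 2). ZFP57, ZNF445, TRIM28, DNMT1, IGF1R, IGF2, TFPI2, PTPRC, CD3E, COL3A1, KRT19 and the genes named for having no read were added after their values were seen.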

Additional observations from a re-analysis of the deposited data

How the results depend on the processing

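The log2 fold changes of the 9 members in the 3 comparisons, 27 values, moved by less than the spread between libraries in all 756 alternatives. None of the 27 was called, and 10 of them changed sign, in 51 of the 756 alternatives, H19 in all comparisons (-0.96 to 0.58 in shG9a_1 and -0.81 to 0.75 in shG9a_4). The 198 values of other named genes were recomputed in 5544 alternatives, of which 16 moved by more and 0 reversed a called value, while 103 values changed sign, in 347 alternatives. Counts depended on the test. In shG9a_1, 7 genes were called, and 143 with the replicate block, 79 with DESeq2, 42 with the likelihood ratio test and 288 with no filter, of which MEST was the 1 member in each. Leaving out a library gave 0 to 10 genes and 0 members, and with the block 4 to 549 genes and 0 to 2 members. In shG9a_4, 5 genes were called, and 14 with the block, 22 with DESeq2, 17 with the likelihood ratio test, 49 with no filter, 1 with unstranded counts and 0 with the 2 groups alone. Leaving out a library gave 0 to 7, and 1 to 26 with the block, with 0 members throughout. Between the hairpins 0 genes were called, and 0 with the block, 6 with DESeq2, 5 with the likelihood ratio test and 106 with no filter, with 0 members. Leaving out a library gave 0, and 0 to 17 with the block. On the opposite strand, 0 genes were called in shG9a_1, and 2 with the block, 1 with the likelihood ratio test and 3 with no filter (0 to 1 with a library left out), and 0 in shG9a_4, with 4 under no filter and 0 with a library left out. The test of the replicate number called 1377 genes, and 435 to 2109 with a library left out, with 1 to 2 members beside 2. The cause of these shifts was not tested. The block changed no call other than those of MEST and PDK4 in shG9a_1 among members and their neighbours. H19, with 13 to 105 reads per library, had the least precise fold change, and PEG3 could not be tested.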

Other observations

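Genes that work beside 2 of the members formed lists of their own. Of 9 matched genes of the COPI coat and its regulators, to which COPG2 belongs, 8 were tested, and 8 of 8 had positive log2 fold changes in shG9a_1, with a median of 0.09 and a range of 0.04 to 0.16, beside a median of 0.00086 over all genes. In shG9a_4, 2 were positive and 6 negative, with a median of -0.02. COPA, the alpha subunit of the coat, was at a mean of 357 ± 35.1 CPM (SD, n = 3) in shSCR, 397 ± 22.5 in shG9a_1 and 356 ± 30.5 in shG9a_4. Of 5 tested genes of the sarcoglycan and dystrophin complexes around SGCE, 5 had positive values in both hairpins, with medians of 0.09 and 0.08. SGCB, the beta subunit, had 0.27 ± 0.10 (SE) in shG9a_1, with every library (43.2 to 48.3 CPM) above every control (35.1 to 40.8), and 0.22 ± 0.10 in shG9a_4, where groups overlapped. UTRN, the dystrophin relative that also neighbours PLAGL1, had 0.26 ± 0.11 and 0.21 ± 0.11. No gene of these lists passed in edgeR in either hairpin, with or without the block, and 0 of the coat genes and 2 of the sarcoglycan list had an unadjusted p under 0.05 in shG9a_1.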
